A study of Homo sapiens with 10 samples.

Results

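The genes described here are the FOX, SOX, PAX, TBX, GATA and LHX transcription factor genes, chosen by name from the protein-coding genes that GENCODE places on chromosomes 1 to 22 and X of the human hg19 build. The name rule took 100 of 20098 genes: 45 FOX, 19 SOX, 9 PAX, 13 TBX, 6 GATA and 8 LHX genes. Each was scored for peaks of ZMYND8 and of FLAG-tagged ZMYND8 in HEK293, an established human embryonic kidney cell line. Peaks were counted at the transcription start site (TSS), meaning that the middle of the peak lay within 3 kb of the 5′ end of the gene, and in the body, meaning the rest of the gene beyond those 3 kb. The peak lists hold no expression data, so which of these genes the cells transcribe was not measured.

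The series has 10 ChIP-seq samples, made from crosslinked chromatin digested with micrococcal nuclease: 2 replicates each for ZMYND8, FLAG-ZMYND8, H3K14ac and H3K27ac with 1 input and 1 FLAG input. For FLAG-ZMYND8, Flp-In T-REx HEK293 cells with an inducible copy of the full-length 3xFLAG-ZMYND8 received 10 nM doxycycline, which drives overexpression of the tagged protein, and the ChIP used an antibody to the tag. For ZMYND8, the ChIP used an antibody to the protein itself. The labels of those samples describe Flp-In T-REx HEK293 cells with a stable 3xFLAG-ZMYND8 transgene, wild type or with the N228F change, without saying which of the forms a sample carried, and they give no induction. The authors deposited 1 peak list for each of the ZMYND8 targets, with 15086 ZMYND8 and 63690 FLAG-ZMYND8 peaks. The lists name no replicates and hold no read counts, the score is 1 in every row, and the depth is unknown. No spread between replicates can be given, no test was run, and the 95% Wilson intervals cover counting error only. Antibody, tag and amount of protein differ together between the lists and cannot be told apart.

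Members of these families set cell identity in the embryo. FOX proteins bind DNA through a forkhead domain, SOX proteins through an HMG box, PAX proteins through a paired domain, TBX proteins through a T-box, GATA proteins through zinc fingers and LHX proteins through a homeodomain next to LIM domains. Many of their genes start in CpG islands, stretches rich in the dinucleotide CpG, and lie in broad domains that are kept silent or open as a block. In the kidney, PAX2, PAX8 and LHX1 act in the intermediate mesoderm from which the organ arises. ZMYND8 is a chromatin protein that binds histones and DNA through its PHD, bromodomain and PWWP modules. The authors report that H3K14ac mainly drives its histone binding in vitro.

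The sequences under the peaks of the kidney lineage genes show what kind of DNA the lists hold at these loci. The ZMYND8 peak nearest to the start is given for each kidney lineage gene that has one, and for PAX2, which has none, the nearest FLAG-ZMYND8 peak, a choice made after its values were seen. All are from the hg19 reference, read 5′ to 3′ on the strand of the gene, at most 300 bases long and without annotated untranslated bases, with each CpG in capitals. The PAX2 stretch is chr10:102505067-102505338 on the plus strand, in an intron. The GATA3 stretch is chr10:8095742-8095835, plus, in an intron. The FOXD1 stretch is chr5:72744674-72744973, minus, outside the gene on the side of its promoter. The FOXC1 stretch is chr6:1611360-1611659, plus, in the coding exon. The TBX18 stretch is chr6:85476308-85476458, minus, upstream of the gene.
PAX2: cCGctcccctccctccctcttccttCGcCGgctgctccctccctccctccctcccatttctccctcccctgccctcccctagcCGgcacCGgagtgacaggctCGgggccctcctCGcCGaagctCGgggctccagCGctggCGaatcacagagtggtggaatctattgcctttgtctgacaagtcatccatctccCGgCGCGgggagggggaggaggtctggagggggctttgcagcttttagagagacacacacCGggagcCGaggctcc
GATA3: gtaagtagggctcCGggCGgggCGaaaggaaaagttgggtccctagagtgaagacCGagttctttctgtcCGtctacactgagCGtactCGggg
FOXD1: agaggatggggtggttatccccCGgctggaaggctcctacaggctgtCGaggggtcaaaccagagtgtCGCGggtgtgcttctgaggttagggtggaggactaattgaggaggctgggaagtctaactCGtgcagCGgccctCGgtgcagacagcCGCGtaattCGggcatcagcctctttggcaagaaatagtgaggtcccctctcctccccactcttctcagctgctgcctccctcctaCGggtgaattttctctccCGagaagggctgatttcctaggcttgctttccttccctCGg
FOXC1: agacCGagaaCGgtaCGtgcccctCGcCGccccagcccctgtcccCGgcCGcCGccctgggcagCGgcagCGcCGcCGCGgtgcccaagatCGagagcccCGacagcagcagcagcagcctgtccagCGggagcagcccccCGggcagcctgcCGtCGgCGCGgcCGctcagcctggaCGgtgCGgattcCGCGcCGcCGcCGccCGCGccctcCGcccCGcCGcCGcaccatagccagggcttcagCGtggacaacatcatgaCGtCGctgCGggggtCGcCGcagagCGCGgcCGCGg
TBX18: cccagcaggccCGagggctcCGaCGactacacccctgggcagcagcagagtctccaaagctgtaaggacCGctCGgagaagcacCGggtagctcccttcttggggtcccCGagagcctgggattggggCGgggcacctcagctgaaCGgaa

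The FOXC1 stretch held 45 CpG sites at a GC content of 77.7%, the PAX2 stretch 16 at 66.5%, the FOXD1 stretch 13 at 58.3%, the TBX18 stretch 9 at 66.2% and the GATA3 stretch 7 in 94 bases at 57.4%. Over the 47 ZMYND8 peaks at the starts of these families the median GC content was 65.6%, beside 60.9% over the whole list, and the median density was 7.74 CpG per 100 bp beside 4.64. The 159 FLAG-ZMYND8 peaks at their starts had medians of 63.5% GC and 6.65 CpG per 100 bp. Over the whole list these were 58.1% and 2.99. Each whole list also holds peaks away from gene starts, so these comparisons mix position with gene family. Medians for peaks at the starts of all protein-coding genes were not computed. Whether these families differ from other starts in GC or CpG was therefore not tested.

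ZMYND8 peaks lay at the starts of 37 of the 100 genes (37.0%, interval 28.2 to 46.8%), where all protein-coding genes gave 34.1%. FLAG-ZMYND8 peaks lay at 64 (interval 54.2 to 72.7%), where all gave 58.1%. Both all-gene shares are within the intervals, so by this count of a peak or no peak the 100 genes stood near the background in this window. With each peak counted only for its nearest protein-coding start, ZMYND8 lay at 36 and FLAG-ZMYND8 at 64. All genes then gave 29.1% and 53.2%, the latter below the FLAG-ZMYND8 interval. Counted from every transcript start, the numbers were 48 and 76, beside 40.2% and 65.0% of all genes. In a window of 1 kb the ZMYND8 count was 22, beside 28.5% of all genes, and the FLAG-ZMYND8 count 51, beside 49.3%. Both lists had a peak at 32 of them (background 29.4%), ZMYND8 alone at 5 (4.73%), FLAG-ZMYND8 alone at 32 (28.7%) and neither at 31 (37.2%). The FLAG-ZMYND8 list is the longer, and cut to as many of its widest peaks as the ZMYND8 list holds, it reached 48 of the 100 starts, beside 35.5% of all. Of the 37 genes in the ZMYND8 list, 13 had only peaks of the minimum width of 151 bp (35.1%, and 32.7% over all genes), and of the 64 in the FLAG-ZMYND8 list 6 had only peaks of the minimum of 167 bp (9.38%, and 20.2%).

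The genes with both lists at the start included FOXA2, FOXA3, FOXB2, FOXC1, FOXD1, FOXD2, FOXD3, FOXF2, FOXH1, FOXI3, FOXJ2, FOXM1, FOXN4, FOXO1, FOXO3, SOX2, SOX3, SOX5, SOX12, SOX13, PAX3, PAX6, TBX1, TBX2, TBX3, TBX6, TBX18, GATA4, GATA6, LHX2 and LHX3. ZMYND8 alone marked FOXA1, a pioneer factor of endoderm and hormone-responsive epithelia, FOXD4, GATA2, a regulator of blood stem cells, SOX8 and TBX21, the T-bet factor of T helper cells. At these 5 genes every ZMYND8 peak at the start was single, 247 bp wide at FOXD4 and of the minimum width at the rest. FLAG-ZMYND8 alone marked FOXB1, FOXC2, FOXE1, FOXF1, FOXI1, FOXJ1, FOXJ3, FOXK1, FOXK2, FOXL1, FOXN2, FOXN3, FOXO6, FOXP1, FOXP2, FOXP4, FOXQ1, FOXS1, SOX4, SOX9, SOX10, SOX15, SOX18, SOX21, SOX30, TBX10, TBX20, LHX1, LHX4, LHX5, LHX6 and LHX9. Neither list had a peak at the starts of FOXE3, FOXI2, FOXL2, FOXL3, FOXN1, FOXO4, FOXP3, FOXR1, FOXR2, SOX1, SOX6, SOX7, SOX11, SOX14, SOX17, PAX1, PAX2, PAX4, PAX5, PAX7, PAX8, PAX9, TBX4, TBX5, TBX15, TBX19, TBX22, GATA1, GATA3, GATA5 or LHX8. Of these 31 genes, 5 are too short to have a body (FOXE3, FOXL2, FOXR2, SOX14 and SOX17). Of the other 26, 13 had no peak in the body either, among them the blood and immune factors GATA1 and FOXP3 and the limb and heart factor TBX5, where 63.4% of all such genes had none.

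The 5′ end that GENCODE gives a gene can lie far upstream of the start of its canonical transcript, and it did so by more than 3 kb for 14 of the 100 genes: FOXN3, FOXP2, SOX5, SOX6, SOX30, PAX2, PAX6, PAX9, TBX1, GATA3, GATA4, LHX2, LHX8 and LHX9. Peaks were therefore counted a second time around canonical starts, a choice made after the data were seen. The totals hardly moved, to 36 genes with ZMYND8 and 66 with FLAG-ZMYND8, beside 35.2% and 59.6% of all protein-coding genes. Single genes did change place. PAX2, PAX9, GATA3 and LHX8, with no peak at the gene start, had peaks at the canonical start, and SOX5, SOX30 and FOXP2 had none there. FOXA1 gained a FLAG-ZMYND8 peak and FOXN3 ZMYND8 peaks, which put both genes in both lists, while FOXO3, GATA4, LHX2 and PAX6 lost ZMYND8 and kept FLAG-ZMYND8.

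The families differed in how many of their genes had a peak at the start. For FLAG-ZMYND8 the order ran from LHX with 7 of 8 genes (87.5%, interval 52.9 to 97.8%) over FOX with 34 of 45 (75.6%, 61.3 to 85.8%), SOX with 12 of 19 (63.2%, 41.0 to 80.9%), TBX with 7 of 13 (53.8%, 29.1 to 76.8%) and GATA with 2 of 6 (33.3%, 9.68 to 70.0%) to PAX with 2 of 9 (22.2%, 6.32 to 54.7%). Neighbours in this order have overlapping intervals, and the FOX and PAX intervals do not overlap. Among genes with CpG-rich starts, a class defined below, FOX had 30 of 38 (78.9%, 63.7 to 88.9%), beside 77.9% of all such genes. PAX had 2 of 7 in that class (28.6%, 8.22 to 64.1%), and there the FOX and PAX intervals overlapped. Around canonical starts the PAX count was 4 of 9 (44.4%, interval 18.9 to 73.3%), so that the PAX and FOX intervals overlapped, and the counts were 3 of 6 for GATA, 10 of 19 for SOX and 8 of 8 for LHX, with FOX and TBX at 34 and 7 as before. For ZMYND8 the intervals of all families overlap, with 3 of 6 GATA genes, 6 of 13 TBX, 18 of 45 FOX, 6 of 19 SOX, 2 of 8 LHX and 2 of 9 PAX genes.

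**Figure D1:**
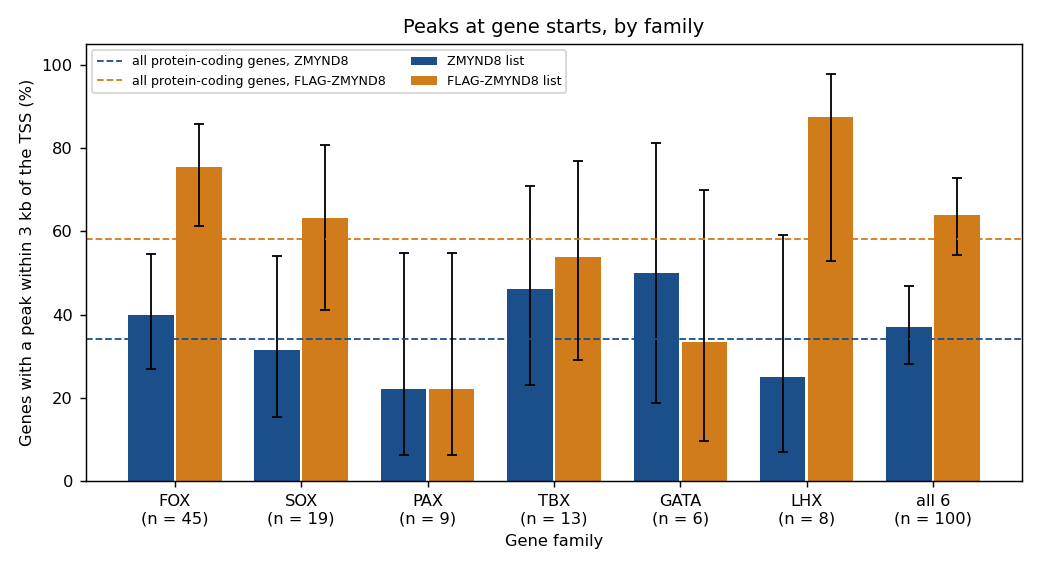
Share of genes in each family with a ZMYND8 or a FLAG-ZMYND8 peak within 3 kb of the TSS (percent of genes, with 95% Wilson intervals for counting error), with the share of all protein-coding genes for comparison. FLAG-ZMYND8 shares run from 22.2% of PAX to 87.5% of LHX genes, and the ZMYND8 shares are lowest for PAX with 2 of 9 and highest for GATA with 3 of 6 genes.

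Among the FOX genes, 12 broadly expressed factors were set apart, which include the insulin-regulated FOXO1, FOXO3 and FOXO4, the metabolic regulators FOXK1 and FOXK2 and the cell cycle factor FOXM1. FLAG-ZMYND8 peaks lay at the starts of 11 of these 12, all but FOXO4, and ZMYND8 peaks at 4 (FOXJ2, FOXM1, FOXO1 and FOXO3). All 12 have CpG-rich starts, and over all genes with such starts, by the GC and CpG measure used here, the shares were 77.9% for FLAG-ZMYND8 and 48.5% for ZMYND8, beside 91.7% and 33.3% here. The intervals of the 12, 64.6 to 98.5% and 13.8 to 60.9%, hold both of those shares. FOXM1 had 2 ZMYND8 peaks that covered 824 bp and 2 FLAG-ZMYND8 peaks that covered 668 bp. FOXD3, a neural crest factor, carried a ZMYND8 peak of 2330 bp at chr1:63787849-63790178 and 3 FLAG-ZMYND8 peaks of 372, 167 and 427 bp, all of which overlapped it. At FOXO1 the lists parted. Its ZMYND8 peak of 2263 bp lay in the first part of the gene, with its middle 1596 bp downstream of the start, and overlapped no FLAG-ZMYND8 peak, while the 2 FLAG-ZMYND8 peaks lay 461 and 1154 bp upstream. FOXP1, a factor of lung, heart and B cells, had the widest FLAG-ZMYND8 peak of the 100 genes, 2707 bp at chr3:71630475-71633181, and its nearest ZMYND8 peak was 201437 bp away.

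The SOX genes were read by their subgroups. Of the B group of neural progenitor factors, SOX2 and SOX3 had peaks of both lists, SOX21 of FLAG-ZMYND8 alone, and SOX1 and SOX14 of neither. SOX2, which maintains pluripotent and neural stem cells, had 1 ZMYND8 peak of 151 bp and 2 FLAG-ZMYND8 peaks that covered 2008 bp, the wider of them 1040 bp long over the coding exon. SOX3 had 3 ZMYND8 peaks, each of 151 bp, and 2 FLAG-ZMYND8 peaks of 260 and 210 bp, and none of these overlapped between the lists. In the C group, SOX4 had 4 FLAG-ZMYND8 peaks, SOX12 had 1 ZMYND8 and 3 FLAG-ZMYND8 peaks, and SOX11, a factor of developing neurons and kidney, had none, with the nearest ZMYND8 peak 2209469 bp and the nearest FLAG-ZMYND8 peak 1173807 bp from its start. The D group, which acts in cartilage, neurons and muscle, had SOX13 with 1 ZMYND8 and 4 FLAG-ZMYND8 peaks and SOX5 with 1 of each, but the SOX5 peaks lay at a gene start 612874 bp from the canonical one, where there was none. In the E group of neural crest and gonad factors, SOX8 had a ZMYND8 peak and SOX9 and SOX10 had FLAG-ZMYND8 peaks, with no gene in both lists. In the F group of endothelial and endoderm factors, SOX18 had 2 FLAG-ZMYND8 peaks, and SOX7 and SOX17 had none of either list.

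Among the PAX genes, PAX3 of the neural crest and muscle lineages and PAX6 of the eye, pancreas and brain had peaks of both lists at the gene start. PAX3 had a ZMYND8 peak of 151 bp and FLAG-ZMYND8 peaks of 167 and 551 bp. PAX6 had 1 wide peak in each list, 1145 bp for ZMYND8 and 1013 bp for FLAG-ZMYND8, which overlapped in an intron near the upstream start. The canonical PAX6 start lies 6639 bp away, and around it there were 5 FLAG-ZMYND8 peaks and no ZMYND8 peak. PAX9, a factor of teeth and pharyngeal pouches, changed the other way, with no peak at the gene start and 2 ZMYND8 and 4 FLAG-ZMYND8 peaks around the canonical start 4292 bp downstream. One of these, a FLAG-ZMYND8 peak of 1544 bp, lay at chr14:37131278-37132821.

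The TBX genes with both lists were TBX1, TBX2, TBX3, TBX6 and TBX18. TBX3, a factor of limb, breast and heart conduction tissue, had a ZMYND8 peak of 2199 bp that spanned its start, with the middle 882 bp upstream, and FLAG-ZMYND8 peaks of 346 and 489 bp. TBX6, which sets paraxial mesoderm, had 6 FLAG-ZMYND8 peaks around a ZMYND8 peak of 874 bp. Among the GATA genes, GATA6, a factor of endoderm and heart, had the widest ZMYND8 peak at the start of any of the 100 genes, 4136 bp at chr18:19749639-19753774, which is number 10 by width of the whole list. Its start had 7 FLAG-ZMYND8 peaks as well, 4 of them of 167 bp and upstream and the widest of 1545 bp. GATA4, its relative in heart and gut, had a ZMYND8 peak of 1274 bp and a FLAG-ZMYND8 peak of 440 bp at a gene start 27243 bp from the canonical start, which had 1 FLAG-ZMYND8 peak and no ZMYND8 peak. GATA1 and GATA5 had no peak at the start or in the body. Among the LHX genes, the brain and limb factor LHX2 had 4 FLAG-ZMYND8 peaks and 1 ZMYND8 peak, LHX3 of the pituitary had 1 of each, and LHX4, its relative, had 4 FLAG-ZMYND8 peaks that covered 1946 bp.

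Where the 100 genes had peaks, the number of peaks and the length under them stood above the values for all genes. At least 2 FLAG-ZMYND8 peaks lay at 47 of the starts, where all genes gave 32.5%, and at least 2 ZMYND8 peaks at 8, where all gave 3.41%. Among genes with a peak, the median length under FLAG-ZMYND8 peaks was 871 bp for these families and 505 bp for all genes, and under ZMYND8 peaks 313 and 258 bp. The median widest ZMYND8 peak was 247 bp beside 234 bp. Of the ZMYND8 peaks, 59.6% were wider than the minimum, beside 63.8% at all starts. The 39 HOX cluster genes stood higher still. At least 2 FLAG-ZMYND8 peaks lay at 92.3% of their starts and at least 2 ZMYND8 peaks at 23.1%, with medians of 1660 and 810 bp. For the 28 ETS family genes these values were 28.6%, 3.57%, 466 bp and 204 bp. A peak of 1000 bp or more, a limit chosen after the widths were seen, lay at 11 of the 37 starts with ZMYND8 (29.7%) and at 10 of the 64 with FLAG-ZMYND8 (15.6%), beside 9.47% and 6.65% over all genes. The 11 with ZMYND8 were GATA6, FOXC1 (3445 bp), FOXF2 (2445 bp), FOXD3, FOXO1, TBX3, FOXN4 (1698 bp), GATA4, PAX6, FOXB2 (1082 bp) and FOXD1 (1019 bp). The 10 with FLAG-ZMYND8 were FOXP1, FOXB1 (2528 bp), FOXC1 (1907 bp), GATA6, TBX18 (1491 bp), FOXO3 (1216 bp), LHX1 (1142 bp), SOX13 (1128 bp), SOX2 and PAX6. FOXC1, GATA6 and PAX6 stand in both series of names. With a CpG-rich start on both sides of the comparison, the shares were 30.3% beside 9.86% for ZMYND8 and 18.9% beside 6.87% for FLAG-ZMYND8.

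**Figure D2:**
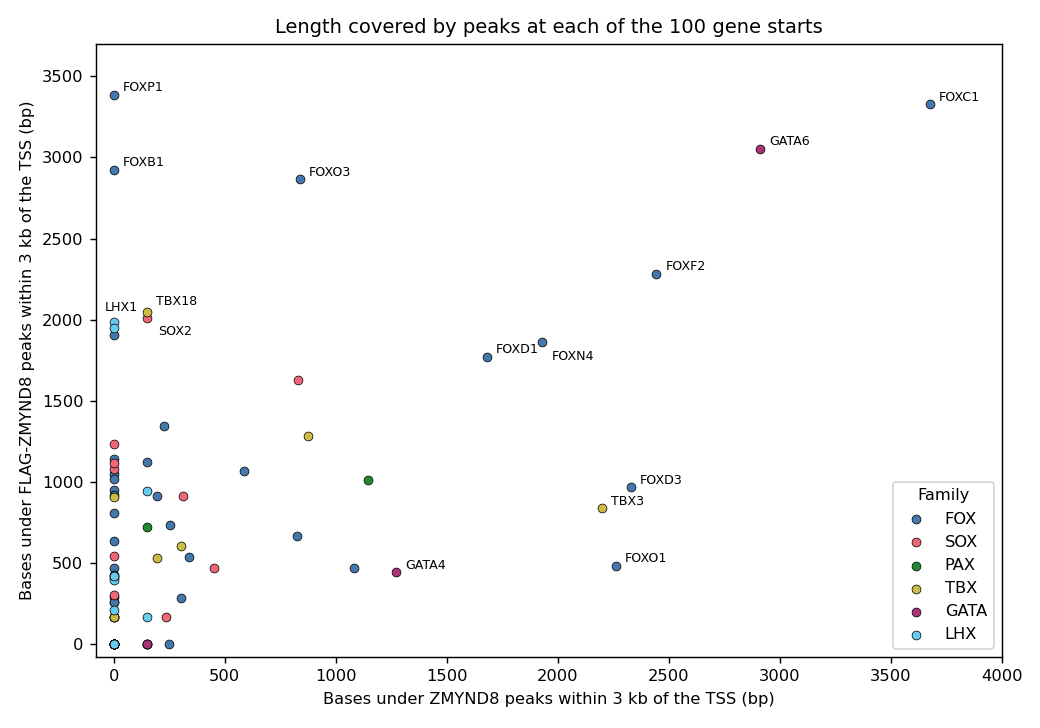
Bases within 3 kb of the TSS under ZMYND8 peaks (x axis, bp) and under FLAG-ZMYND8 peaks (y axis, bp), with 1 point for each of the 100 genes, coloured by family. FOXC1 lies farthest out on both axes together, with 3678 and 3328 bp, followed by GATA6 with 2912 and 3054 bp, while FOXP1 and FOXB1 have long FLAG-ZMYND8 cover of 3387 and 2924 bp and no ZMYND8 peak.

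The distances from the start were also above those of all genes. The median distance from the TSS was 1009 bp for the 47 ZMYND8 peaks, beside 411.5 bp for peaks at all genes, and 1112 bp for the 159 FLAG-ZMYND8 peaks, beside 712 bp. With CpG-rich starts alone, the ZMYND8 medians were 945 bp here and 358 bp at all genes, and those of FLAG-ZMYND8 1086 and 636 bp. Around canonical starts they were 1069 and 348 bp, and 1087 and 655 bp. A ZMYND8 peak lay within 500 bp of the start at 14 of the 100 genes, beside 21.5% of all, and a FLAG-ZMYND8 peak at 34, beside 37.6%. With CpG-rich starts alone these shares were 16.7% beside 33.8% for ZMYND8 and 37.2% beside 54.8% for FLAG-ZMYND8. At the start itself, 11 of the genes were under a ZMYND8 peak (background 8.81%) and 18 under a FLAG-ZMYND8 peak (12.6%), but with CpG-rich starts alone the shares were below those of all genes, at 12.8% beside 14.4% and 17.9% beside 18.8%. At 1 kb downstream, 9 and 19 of the genes were under a peak of the ZMYND8 and the FLAG-ZMYND8 list, beside 2.88% and 8.86% of all genes. Peaks downstream of the start outnumbered those upstream, with 29 of 47 for ZMYND8 (61.7%, and 65.3% at all genes) and 90 of 159 for FLAG-ZMYND8 (56.6%, and 60.1%). By the annotation at their middle, 18 of the 47 ZMYND8 peaks lay outside the gene, 12 in untranslated parts of exons, 11 in introns and 6 in coding exons. The same split was not computed for peaks at all starts.

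**Figure D3:**
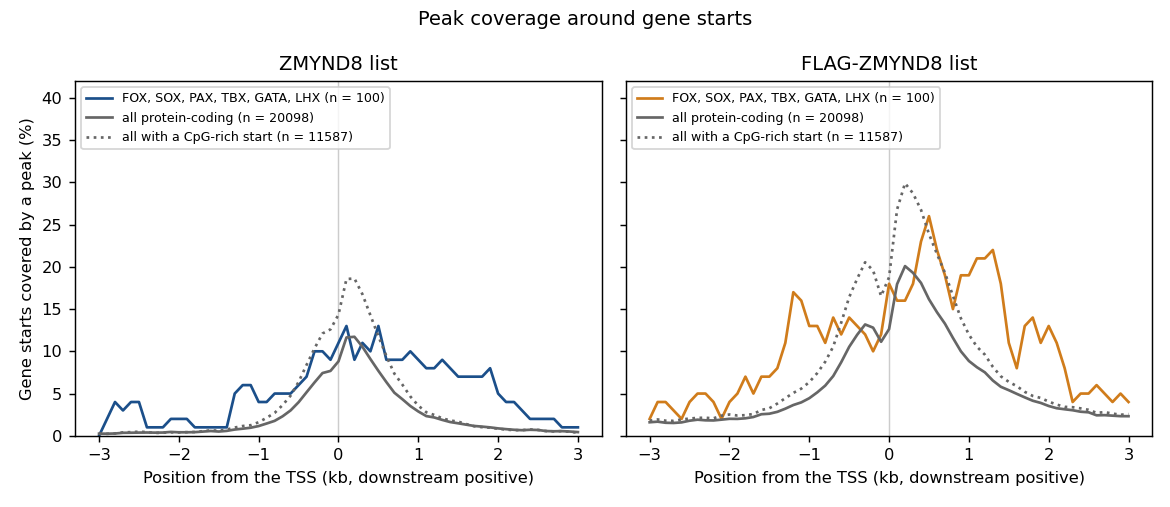
Share of gene starts under a peak (percent) by position from the TSS (kb, downstream positive), for the 100 genes (coloured line), all protein-coding genes (solid grey) and all with a CpG-rich start (dotted). The coloured lines are spread over the window, with 17 of the 100 genes under a FLAG-ZMYND8 peak at 1200 bp upstream beside 3.64% of all, and the grey lines gather just downstream of the TSS, at 11.7% for ZMYND8 and 20.1% for FLAG-ZMYND8 200 bp downstream.

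Starts were called CpG-rich when the 1 kb around them had a GC content over 50% and a ratio of observed to expected CpG over 0.6. By this measure 78 of the 100 genes were CpG-rich, and 57.7% of all protein-coding genes. Within this class a ZMYND8 peak lay at 33 of the 78 (42.3%, interval 32.0 to 53.4%) beside 48.5% of all CpG-rich starts, and a FLAG-ZMYND8 peak at 53 (67.9%, interval 57.0 to 77.3%) beside 77.9%, which is above the interval. Around canonical starts the shares were 43.0% beside 48.7%, and 72.2% beside 78.4%, where the interval of 61.4 to 80.8% holds the share of all genes. Of the other 22 genes, 4 had a ZMYND8 peak (FOXH1, GATA4 and LHX2 among them) and 11 a FLAG-ZMYND8 peak, beside 14.5% and 31.1% of all genes of that class. Neither list had a peak at 20 of the 78 CpG-rich starts, or 25.6%, beside 15.8% of all, and SOX1, SOX11, SOX14, SOX17, PAX1 and TBX5 were among them.

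The kidney lineage genes of these families were taken as PAX2, PAX8, LHX1, GATA3, FOXD1, FOXC1, FOXC2, FOXI1, SOX4, SOX9, SOX11 and TBX18. ZMYND8 peaks lay at the gene starts of 3 of the 12 (FOXC1, FOXD1 and TBX18; interval 8.89 to 53.2%) and FLAG-ZMYND8 peaks at 8 (those 3 with LHX1, FOXC2, FOXI1, SOX4 and SOX9; interval 39.1 to 86.2%). The shares of all protein-coding genes, 34.1% and 58.1%, lie within these intervals. Around canonical starts GATA3 joined the first set, for 4 of 12, and PAX2 and GATA3 the second, for 10 of 12. The remaining 88 genes gave 34 and 56 at gene starts (38.6% and 63.6%), both within the intervals of the kidney lineage genes.

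PAX2, PAX8 and LHX1 thus differed from each other. PAX2 (chr10:102495153-102589701, plus) had no ZMYND8 peak at either start, and its nearest lay 70110 bp upstream of the gene. It had 3 FLAG-ZMYND8 peaks around the canonical start, of 255, 167 and 409 bp, with their middles 1609, 1231 and 68 bp upstream of it, and the last of these is the PAX2 sequence given above. PAX8 (chr2:113973574-114036498, minus), which continues to act in the adult tubule and thyroid, had no peak of either list at its start, 1 FLAG-ZMYND8 peak of 167 bp in an intron 46006 bp downstream, and its nearest ZMYND8 peak 79798 bp downstream of the start, beyond the end of the gene. LHX1 (chr17:35294084-35301912, plus) had 5 FLAG-ZMYND8 peaks at the start and 1 in the body, the widest of 1142 bp with its middle 845 bp upstream, and its nearest ZMYND8 peak was 12231 bp downstream.

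GATA3, which acts in the nephric duct, had nothing within 3 kb of the gene start at 8087341 on chromosome 10. Around the canonical start 9310 bp downstream it had 2 ZMYND8 peaks, of 286 and 768 bp, and 4 FLAG-ZMYND8 peaks, the widest of which, at 1056 bp, overlapped the wider ZMYND8 peak. FOXD1, a marker of the renal stroma, had 3 ZMYND8 peaks of 264, 1019 and 398 bp and 4 FLAG-ZMYND8 peaks of 167, 956, 424 and 222 bp, and each ZMYND8 peak overlapped a FLAG-ZMYND8 peak. FOXC1, which acts in kidney and eye mesenchyme, had a ZMYND8 peak of 3445 bp over its start and coding exon, number 20 by width of the whole list, and 6 FLAG-ZMYND8 peaks, each of which overlapped that peak or a smaller ZMYND8 peak upstream. Its paralog FOXC2 had no ZMYND8 peak, with the nearest 59563 bp upstream, and 2 FLAG-ZMYND8 peaks of 783 and 167 bp. TBX18, a factor of the ureter mesenchyme, had a ZMYND8 peak of 151 bp 2067 bp upstream of the start and 3 FLAG-ZMYND8 peaks that did not overlap it, of 1491, 387 and 167 bp. SOX4 and SOX9, both of which act in nephron and ureter growth, had 4 and 3 FLAG-ZMYND8 peaks that covered 1234 and 1116 bp. FOXI1, a factor of the intercalated cells, had a single FLAG-ZMYND8 peak of 167 bp 2678 bp downstream of the start.

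**Figure D4:**
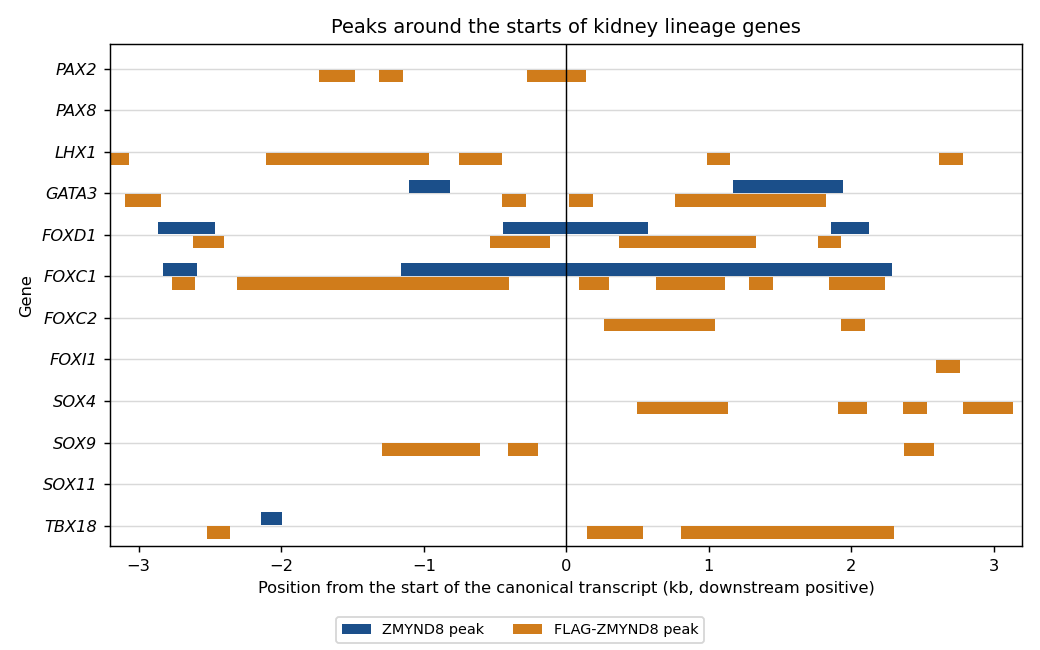
Peaks around the canonical starts of the 12 kidney lineage genes, by position from the start (kb, downstream positive), with ZMYND8 peaks in blue above FLAG-ZMYND8 peaks in orange, drawn to scale. PAX8 and SOX11 have no peak, PAX2, LHX1, FOXC2, FOXI1, SOX4 and SOX9 have FLAG-ZMYND8 peaks alone, and the widest bar is the ZMYND8 peak of 3445 bp at FOXC1.

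A set of 18 other kidney development genes was scored beside them. ZMYND8 peaks lay at the gene starts of 8, among them GDNF, OSR1, SALL1, WNT4 and WT1, and FLAG-ZMYND8 peaks at 13, which include these and BMP7, SIX2 and WNT11. CITED1, EYA1, HNF4A, RET and WNT9B had neither. These shares, 44.4% and 72.2%, lie within the intervals of the 12 kidney lineage genes.

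Gene bodies were scored for the 82 of the 100 genes that extend beyond 3 kb from the start. A ZMYND8 peak lay in 24 bodies (29.3%), where all genes gave 20.7%, and a FLAG-ZMYND8 peak in 49 (59.8%), where all gave 48.8%. The ZMYND8 count depended on the start used, and with peaks within 3 kb of any transcript start taken out of the body it was 11 of 82 (13.4%), beside 13.3% of all genes. The FLAG-ZMYND8 count was then 38 (46.3%), beside 36.8% of all. The bodies held 43 ZMYND8 and 264 FLAG-ZMYND8 peaks, or 0.72 and 4.44 per 100 kb, beside 0.44 and 2.49 over all genes. With the FLAG-ZMYND8 list cut to its widest peaks, 26 bodies were reached, beside 16.2% of all. By family, the FLAG-ZMYND8 density ran from 19.8 per 100 kb in GATA genes over LHX (11.4), PAX (7.85), FOX (5.01) and TBX (2.18) to SOX genes (1.14), whose bodies SOX5 and SOX6 make long. PAX5 alone held 30 of the 49 PAX peaks. In these densities, peaks at the canonical start count as body peaks for the 14 genes where it lies more than 3 kb downstream, GATA3, GATA4, LHX2, PAX2 and PAX9 among them.

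The 10 genes with the most FLAG-ZMYND8 peaks in the body were PAX5 (30 peaks), FOXP1 (25), FOXK2 (19), FOXO3 (15), FOXN3 (14), GATA4 (14), FOXO1 (13), FOXP4 (11), FOXK1 (10) and GATA6 (8). They held 159 of the 264 peaks, or 60.2%, in 32.2% of the body length. PAX5, the factor that commits lymphoid cells to the B lineage, had 30 FLAG-ZMYND8 and 6 ZMYND8 peaks in its body and none at its start, nearly all in introns and 2 of the 6 overlapping between the lists. By density GATA6 stood first of the 10 with 2.67 FLAG-ZMYND8 peaks per 10 kb, followed by FOXP4 (2.08), GATA4 (1.75), FOXK2 (1.56) and PAX5 (1.52). FOXK2 and PAX5 were the ones with the most ZMYND8 peaks in the body, with 5 and 6. FOXO3, FOXP4, FOXK1 and GATA6 had none. The FLAG-ZMYND8 body peaks lay in introns in 232 of 264 cases, and 18 of the 264 (6.82%) overlapped a ZMYND8 peak, beside 6.20% over all genes. The intron share of body peaks over all genes was not computed.

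**Figure D5:**
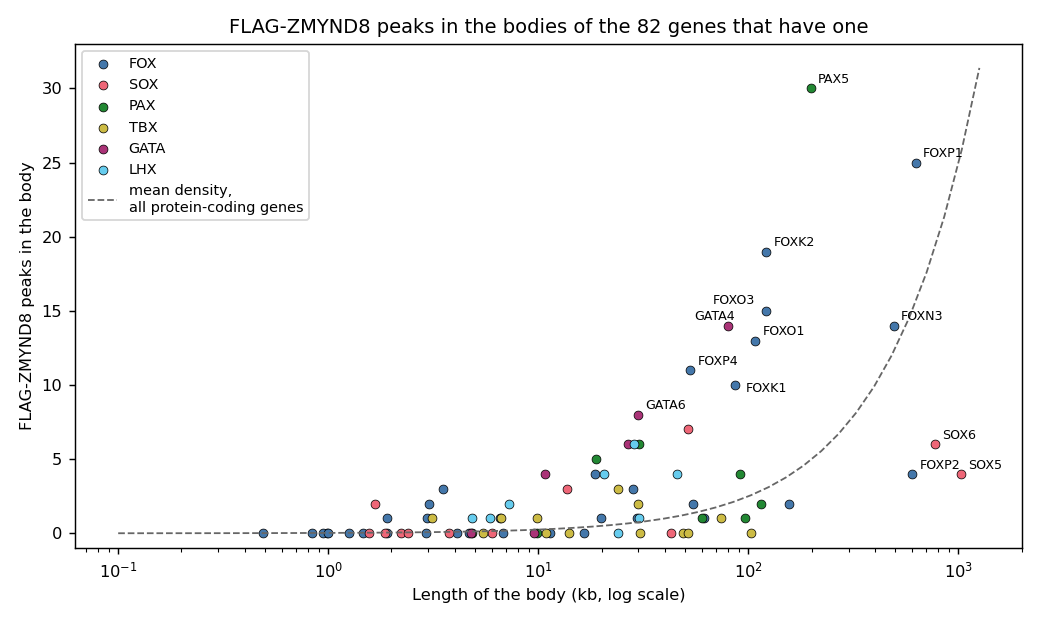
Number of FLAG-ZMYND8 peaks in the gene body by the length of the body (kb, log scale), with 1 point for each of the 82 genes that have a body, coloured by family; the dashed line is the mean density of all protein-coding genes. PAX5 with 30 peaks, FOXP1 with 25 and FOXK2 with 19 have the most, and the long genes SOX5, SOX6 and FOXP2 hold 4, 6 and 4 and lie below the line.

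Peaks in the body also occurred without any at the start. Of the 26 genes with a body and with neither list at the start, 13 had a body peak, where 36.5% of all such genes had one: PAX5, PAX9, PAX2, PAX7, PAX8, PAX4, GATA3, SOX6, LHX8, TBX4, TBX15, FOXN1 and FOXR1. PAX9 (2 ZMYND8 and 5 FLAG-ZMYND8 peaks), GATA3 (2 and 6), PAX2 (0 and 4) and LHX8 (1 and 1) are genes whose canonical start lies in what was counted as body. The LHX8 peaks lay 1998 and 2112 bp downstream of its canonical start. SOX6, a factor of cartilage and red cells, had 2 ZMYND8 and 6 FLAG-ZMYND8 peaks in a body of 770143 bp, and PAX7 of the muscle stem cells 1 and 2 in 115020 bp. The canonical start of SOX6 also lies in its body, with no peak of either list within 3 kb of it. PAX4 and TBX15 had 1 ZMYND8 peak and no FLAG-ZMYND8 peak.

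At the starts, 25 of the 47 ZMYND8 peaks overlapped a FLAG-ZMYND8 peak by at least 1 bp (53.2%, interval 39.2 to 66.7%), beside 56.4% of the ZMYND8 peaks at all starts, and in the other direction the count was 36 of 159 (22.6%), beside 21.4%. Of the 32 genes with both lists at the start, 21 had such an overlap, and 11 had peaks that lay apart (among them FOXD2, FOXH1, FOXI3, FOXO1, SOX3, SOX5, TBX2, TBX18, LHX2 and LHX3). The same share over all protein-coding genes with both lists was not computed, so whether 11 of 32 is unusual was not tested. A reciprocal overlap of 50% left 14.9% of the 47, beside 22% at all starts.

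FOX genes also occur in clusters, and 2 of these were compared as stretches from 3 kb before to 3 kb after their outer genes. The cluster of FOXQ1, FOXF2 and FOXC1 (chr6:1309333-1617132, 307.8 kb) held 7 ZMYND8 peaks, which covered 8359 bp, and 26 FLAG-ZMYND8 peaks, which covered 10773 bp. The cluster of FOXF1, FOXC2 and FOXL1 (chr16:86541133-86620084, 79.0 kb), in which FOXF1 and FOXC2 are the paralogs of FOXF2 and FOXC1, had no ZMYND8 peak and 8 FLAG-ZMYND8 peaks, which covered 2824 bp. By length the FLAG-ZMYND8 densities were 8.45 peaks per 100 kb in the first and 10.1 in the second, and that of ZMYND8 in the first was 2.27. The bodies of all protein-coding genes, which leave out the starts, held 2.49 FLAG-ZMYND8 and 0.44 ZMYND8 peaks per 100 kb. A density for stretches like these clusters was not computed, so whether their counts or the lack of ZMYND8 in the second are unusual was not tested. Within the first cluster, FOXQ1 at one end had 1 FLAG-ZMYND8 peak of 420 bp and no ZMYND8 peak, whereas FOXF2 and FOXC1 each had a ZMYND8 peak over 2 kb wide.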

How the data were processed

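ChIP-seq was analysed from the peak lists for ZMYND8 and FLAG-ZMYND8 in HEK293 cells. The H3K14ac, H3K27ac and input samples, 6 of the 10, were not analysed here. The authors aligned to hg19 by BWA-MEM (BWA 0.7 for part of the samples, per the submitters' processing notes) and made profiles with HOMER. Peak settings and the way replicates were combined are not given in the sources used here. The deposited score column holds 1 in every row, so peaks were ranked by width. Depth is unknown.

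Peak midpoints were placed against gene 5′ ends from GENCODE release 44 (GRCh37, equal to hg19), with all 20098 protein-coding genes as background. A peak within 3 kb of several starts counted for each, and peaks overlapped when they shared at least 1 bp. CpG-rich starts had a GC content over 50% and observed over expected CpG over 0.6 in the 1 kb around them. Intervals are 95% Wilson intervals, and without replicates no test was run. A few single genes are counted but not reported by name here. Genes were named by kidney lineage, by the 10 widest peaks of each list at a start, by the 10 largest counts in the body, and by class. The genes, the lists, the clusters and the limit of 1000 bp were chosen with earlier results of these data known. The canonical starts were added after the data were seen. The alternatives were windows of 1 kb and 500 bp, all transcript starts, placement by overlap, peaks wider than the minimum, the widest FLAG-ZMYND8 peaks, the nearest start only, the whole gene as body and a reciprocal overlap of 50%. The placement code was tested on simulated data with 1000 planted genes, with 0 placed wrongly. Python 3.11.15, numpy 2.4.6, pandas 2.3.3, scipy 1.17.1 and matplotlib 3.10.9 were used.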

Additional observations from a re-analysis of the deposited data

How the results depend on the processing

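Of 64 alternative values for the counts given above, 49 stayed within 1.5 times the value given (for the overlap share, within its interval) and 15 moved further. Narrowing the window around the TSS moved most of them. With 1 kb, ZMYND8 peaks lay at 22 of the 100 starts (28.5% of all genes) and both lists at 17 (22.7%). With 500 bp, ZMYND8 peaks lay at 14 (21.5%), FLAG-ZMYND8 peaks at 34 (37.6%), both at 6 (14.5%) and neither at 58 (55.4%), so that the ZMYND8 and both-list counts, above the share of all genes at 3 kb, were below it in both narrower windows. The kidney lineage counts with 500 bp were 1 and 5 of 12. With peaks wider than the minimum, ZMYND8 was at 24 starts (22.9%) and in 15 bodies (18.3%, beside 9.59% of all). Counting from every transcript start left ZMYND8 in 11 bodies (13.4%, beside 13.3% of all), and the whole gene as body gave 42 (37.5% of all). The widest FLAG-ZMYND8 peaks alone lay in 26 bodies (16.2% of all) and left an overlap of 38.3% (39.9% at all starts), and a reciprocal overlap of 50% left 14.9% (22%), both by construction stricter. Canonical starts moved none of the counts over all 100 genes or the kidney lineage genes by that much. No paired analysis was possible because each target has a single list without replicate columns, and no replicate could be omitted either. The lists hold no read counts, so a start without a peak may be one that the depth did not reach, and the share of peaks at the minimum width limits what width can rank.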

Other observations

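Grouped by tissue in place of family, the 11 neural and neural crest genes had ZMYND8 at 8 starts and FLAG-ZMYND8 at 9, where all genes gave 34.1% and 58.1%, with SOX1 and PAX7 in neither list. Around canonical starts the ZMYND8 count was 6. The 11 heart and endoderm genes had 7 and 7, with GATA5, TBX5 and SOX17 in neither. Their ZMYND8 count around canonical starts was also 6, where all genes gave 35.2%. The 6 haematopoietic genes had ZMYND8 at 3 starts (GATA2, TBX21 and LHX2), each with a peak of 151 bp, and FLAG-ZMYND8 at 1 (LHX2), while their bodies held 41 FLAG-ZMYND8 peaks, of which PAX5 had 30. Around canonical starts LHX2 had no ZMYND8 peak. The lists are short, and LHX2 stands in both the neural and the haematopoietic list. Counting intervals for ZMYND8 were 43.4 to 90.3% for the neural genes and 35.4 to 84.8% for the heart and endoderm genes. Both lie above the share of all genes at the gene starts. That of the haematopoietic genes, 18.8 to 81.2%, holds it. The neural and the heart and endoderm intervals both hold the 48.5% of all CpG-rich starts. Such starts belong to 8 of the 11 neural and 9 of the 11 heart and endoderm genes. Intervals around canonical starts were not computed for these lists. Only peaks of 151 bp lay at 6 of the 8 neural starts with ZMYND8 and at 3 of the 7 heart and endoderm starts, beside 32.7% over all genes. Among other transcription factor families, the 39 HOX cluster genes had ZMYND8 at 23 starts (59.0%) and FLAG-ZMYND8 at 37 (94.9%), and the 28 ETS family genes had 11 (39.3%) and 17 (60.7%), near the shares of all genes. HOX genes lie next to each other, and a peak can count for more than 1 of them.

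On chromosome X, 1 of the 6 genes, SOX3, had a peak of either list at the start, and FOXO4, FOXP3, FOXR2, GATA1 and TBX22 had none. The share over all chromosome X genes was not computed, so a lack of peaks on this chromosome was not tested. FOXP3, FOXR2, GATA1 and TBX22 have starts outside the CpG-rich class, where 66.3% of all genes had neither list. A long noncoding RNA gene started on the other strand within 3 kb of the TSS at 29 of the 100 genes, beside 16.2% of all protein-coding genes. Of these 29, 22 had a FLAG-ZMYND8 peak and 11 a ZMYND8 peak at the start, or 75.9% and 37.9%, beside 74.8% and 45.7% of all protein-coding genes with such a neighbour. CpG-rich starts made up 93.1% of the 29 and 77.7% of all genes with such a neighbour. All CpG-rich genes with one gave 81.5% for FLAG-ZMYND8 and 50.6% for ZMYND8. Both are above the shares of the 29 and within their intervals, 57.9 to 87.8% and 22.7 to 56.0%.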
